A study of Macaca mulatta with 16 samples.

Results

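Dense regulatory neighbourhoods are stretches of 200 kb that hold many open sites. Overlapping peaks (1 bp or more in common) from the 16 lists were joined into 55449 regions, the autosomes were divided into fixed 200 kb bins from position 0, and each region was placed in the bin that held its midpoint. A bin with at least 20 regions was called dense. This gave 351 dense bins of 7612 autosomal bins with a region (4.61%), and they held 8442 of the 55449 regions (15.2%). The other 45523 autosomal regions lay in bins with fewer, and X was left out. The bins were thus chosen by a measured value, the number of regions open in any library, and density itself is a description. How the regions of a bin divide between cell states, lineages and times was not used, although a bin to which several populations add regions of their own reaches 20 sooner.

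The data are ATAC-seq peak lists, in which a transposase marks accessible DNA, from peripheral blood T cells, sorted, of 2 rhesus macaques (Macaca mulatta). Naive CD4+, memory CD4+, naive CD8+ and memory CD8+ T cells were sorted from each animal before treatment, with the treatment label none, and after subcutaneous 2-hydroxypropyl-beta-cyclodextrin. The agent was given as a 15% (w/w) solution at 1 ml/kg daily for up to 120 days. The 16 libraries thus make 8 groups, each with a library from either animal (n = 2), and the labels give no age or genotype and no animal left untreated, so time and treatment cannot be told apart. The titles name 2 animals, here called animal 1 and animal 2, and were followed, although file names give the latter a separate number in each population.

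A naive T cell is still to be activated by its antigen, whereas memory T cells persist from an earlier response and react faster. CD4+ cells mainly help other immune cells, and CD8+ cells mainly kill infected cells. Open sites in T cells are mostly promoters and enhancers, and genes that set a cell's identity often lie among many enhancers, so a crowded neighbourhood can mark such a gene. Positions below are in rheMac10. Genes at them are not named and the sorted populations were not checked against marker genes, because no gene annotation of that build was used here.

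Lists held 36307 to 42034 peaks, which covered 51.4 to 66.3 Mb, and the read depth behind them is unknown. Naive CD8+ cells of animal 1 gave the 2 shortest lists, with 36307 and 37966 peaks. A region counted as open in a library when that library had a peak in it. A missing peak can mean that fewer cells were open there, that each cell was less open or that the library was shallower, which cannot be told apart.

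Dense bins held 20 to 47 regions, with a median of 23 against 5 over all autosomal bins with a region. There were 227 bins with 20 to 24 regions, 87 with 25 to 29 and 37 with 30 or more. At the threshold stood 70 bins with 20 regions, in which a library had on average 13.3 open regions, and just below it 60 bins with 19 regions, with 12.8. Regions in dense bins were somewhat wider than elsewhere, with a median of 1427 bp against 1210 bp. They lay closer together, as the choice requires, with a median gap of 2598 bp against 11051 bp, and 17.5% of gaps were at most 500 bp, against 7.19% elsewhere. Peaks in dense bins were not stronger ones. The median percentile of area score, the caller's score ranked within a list, was 51.8 in dense bins and 52.3 elsewhere, and 10.2% against 11.2% of peaks stood in the top 10% of their list. Fewer regions were open in every library, 3419 of 8442 (40.5%) against 44.5% elsewhere, and 964 (11.4%) were open in 1 library alone, against 10% elsewhere. The choice counts regions open in any library, rarely open ones included. Its part in these differences was not tested.

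Dense bins were spread over all 20 autosomes but unevenly. Chromosome 19 had the highest share, with 25 of 237 bins (10.5%), followed by chromosome 14 with 28 of 358 (7.82%) and chromosome 16 with 22 of 323 (6.81%). Chromosome 17 had the lowest, 4 of 215 (1.86%). Of the 351 bins 256 stood alone and 95 (27.1%) touched another dense bin. The longest runs were 3 bins, and there were 5 of them. The run with the most regions, 89, lay on chromosome 18 from 73800001 to 74400000, and the next, with 78, on chromosome 7 from 168800001 to 169400000. Density was much the same in both animals. When the lists of each animal were merged alone, 301 bins were dense in animal 1 and 288 in animal 2. The 227 dense in both made up 75.4% of the first set and 78.8% of the second. The bins chosen in one animal held a median of 22 regions in the other, against 5 in the remaining bins.

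**Figure D1:**
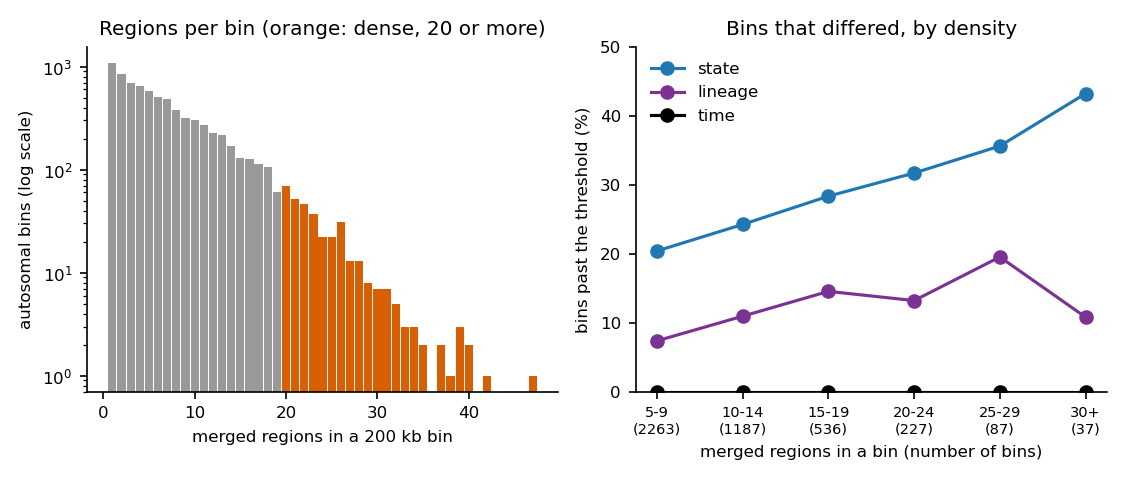
Left, number of autosomal bins (log axis) by the merged regions they hold, with the 351 dense bins in orange. Right, percent of bins past the threshold (adjusted p under 0.05, exact permutation test) by regions per bin, with the number of bins in parentheses. For state it rose from 20.4% at 5 to 9 regions to 43.2% at 30 or more. For lineage it was highest at 25 to 29 regions (19.5%) and 10.8% at 30 or more, and for time it was 0 throughout.

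The densest bins did not share one pattern. The bin with the most regions, 47, lay on chromosome 7 at 42200001 to 42400000. In it naive CD8+ cells had 36 open regions before treatment and 39 afterwards in animal 2, but 13 and 10 in animal 1. Naive CD4+ cells had 29 and 20 in animal 1 and 31 and 31 in animal 2. Memory CD4+ cells had 16 and 18 in animal 1 and 21 and 23 in animal 2, and memory CD8+ cells 10 and 14, and 17 and 22. Libraries of animal 2 were the higher in each population, and the bin did not pass the test for state (adjusted p = 0.158 by the exact permutation test), lineage (adjusted p = 0.742) or animal (adjusted p = 0.233). The second, with 42 regions, lay on chromosome 18 at 74000001 to 74200000. Naive CD4+ cells of animal 2 had 41 of them open before treatment, and every other library had 8 to 26. CD4+ libraries, with 17 to 41, were on average above CD8+ libraries, with 8 to 24, without passing (exact permutation test, adjusted p = 0.0507).

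Others among the 10 densest did differ by state or lineage. On chromosome 15 at 10400001 to 10600000, with 38 regions, memory libraries had 29 to 35 open and naive libraries 20 to 25, without overlap. On chromosome 10 at 29800001 to 30000000, with 40 regions, memory libraries had 23 to 36 and naive libraries 17 to 23. The bin on chromosome 1 at 123600001 to 123800000, with 37 regions, was also higher in memory cells, 26.1 ± 3.31 against 21.9 ± 1.64 (SD, n = 8 each). The bin on chromosome 2 at 54400001 to 54600000, with 39 regions, was higher in CD4+ cells, 33 to 37 against 23 to 32, and one on chromosome 4 with 39 regions was higher in naive cells, as described below. The remaining 3 were on chromosome 12 at 84200001 to 84400000 (40 regions), chromosome 7 at 123400001 to 123600000 (39 regions) and chromosome 9 at 7600001 to 7800000 (37 regions). They passed no test for state, lineage or time, and 18, 19 and 18 of their regions were open in every library. Bins that did pass had 19 (chromosome 15), 15 (chromosome 10), 16 (chromosome 1), 20 (chromosome 2) and 3 (chromosome 4) such regions.

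Summed over all dense bins, a library had 53.8% to 68.5% of the 8442 regions open (median 64.0%). Naive CD8+ cells of animal 1 had the lowest values, 53.8% before and 57.3% after treatment, and also had the shortest lists. Memory libraries had 65.0% ± 2.38 open and naive libraries 62.1% ± 4.32 (SD, n = 8 each), and the memory library was higher in 7 of 8 matched pairs. The mean difference of 2.84 ± 2.74 percentage points (SD, n = 8 pairs) did not pass adjustment (two-sided exact sign-flip p = 0.0156, and p = 0.0625 after Benjamini-Hochberg adjustment over 8 tests). The 8 pairs come from just 2 animals, and naive minus memory was -4.55 points in animal 1 and -1.14 points in animal 2. The mean difference was 1.33 points with shifted bins and 1.56 points without both naive CD8+ libraries of animal 1 (adjusted p = 0.417 and 0.25, exact sign-flip). Relative to the regions of all other bins in the same library, dense bins were less open in 15 of 16 libraries, by 2.66 percentage points on average. Bins were chosen by their number of regions open in any library, and the part of this choice in the size of the gap was not tested. The gap is therefore not read as a trait of dense bins. This gap was -3.43 ± 1.75 points in naive and -1.89 ± 2.02 points in memory libraries (SD, n = 8 each), larger in naive cells in every one of the 8 pairs. The exact sign-flip p of 0.00781 is the smallest that 8 pairs allow, and the adjusted p was 0.0625. This difference depended on where the bins began. With bins shifted by 100 kb the naive minus memory difference in the gap went from -1.54 to 0.27 points (exact sign-flip test, adjusted p = 0.784).

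Lineage and time gave no difference in this share that passed. CD4+ libraries had 64.8% ± 1.59 open and CD8+ libraries 62.3% ± 4.78 (SD, n = 8 each; exact sign-flip p = 0.0938, adjusted p = 0.25). The difference of 2.49 points was 1.52 without the pair before treatment of naive CD4+ and naive CD8+ cells of animal 1. It was 0.89 without both naive CD8+ libraries of animal 1 and also with lists of equal length. It was 5.16 points in animal 1 and -0.18 points in animal 2. Libraries after treatment had 63.4% ± 2.79 open and those before 63.7% ± 4.59 (SD, n = 8 each; exact sign-flip p = 0.797). Nor did the effect of state differ between CD4+ and CD8+ cells beyond the spread of pairs. The share was lower in naive cells by 2.05 ± 1.33 points in CD4+ pairs and by 3.64 ± 3.76 points in CD8+ pairs (SD, n = 4 each; exact permutation test, p = 0.429, adjusted p = 0.571). The animals lay further apart than the states, with 61.5% ± 4.06 open in animal 1 and 65.6% ± 1.69 in animal 2 (SD, n = 8 each). Only memory CD4+ cells after treatment had a higher share in animal 1 (66.6% against 65.7%). The gap to other bins was -4.19 ± 1.35 points in animal 1 and -1.14 ± 1.16 points in animal 2. These shares were not tested between animals.

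**Figure D2:**
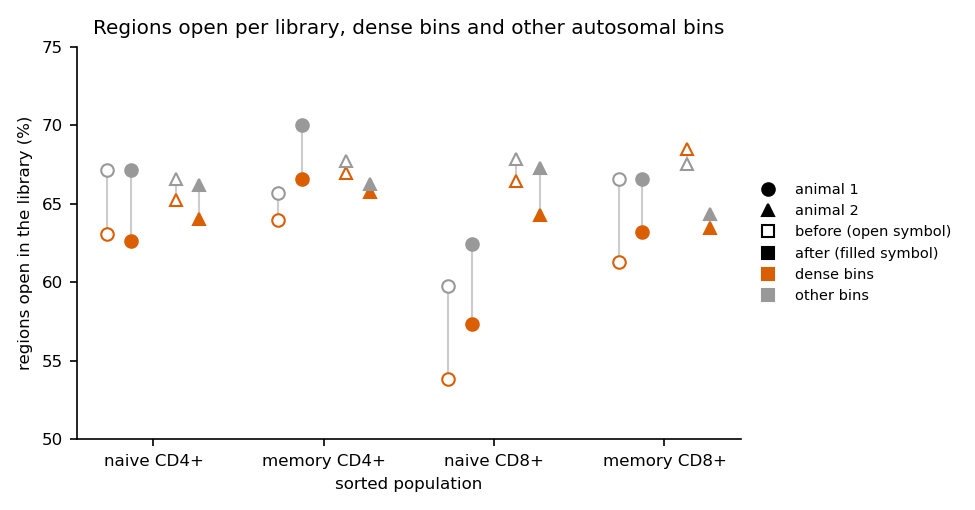
Percent of merged regions open in each library, for dense bins (orange) and all other autosomal bins (grey), by sorted population. Circles are animal 1 and triangles animal 2, open symbols are before and filled symbols after treatment, and a line joins both values of a library; the vertical axis starts at 50%. The lowest orange points, 53.8% and 57.3%, are naive CD8+ cells of animal 1.

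The state comparison asked in which bins naive and memory cells differ in the number of open regions. Of the 351 dense bins, 41 had more open regions in naive libraries and 78 had more in memory libraries. Over all 4337 autosomal bins with at least 5 regions, 23.5% differed, 9.32% in favour of naive and 14.2% in favour of memory cells. The shares in dense bins were 33.9%, 11.7% and 22.2%. Each bin was tested by an exact two-sided permutation of the 16 libraries, 8 against 8, with Benjamini-Hochberg adjustment over the 4337 bins and a threshold of 0.05. The p-values reflect variation among libraries of just 2 animals. Without the 2 naive CD8+ libraries of animal 1, which had the shortest lists, 55 dense bins were higher in naive and 59 in memory cells, a nearly even split. The share of naive calls was thus 48.2% in place of 34.5%, and with counts scaled to each library it was 44.2% (68 and 86 bins). In these settings 32.5% and 43.9% of dense bins differed, against 23.4% and 33.7% of all tested. How the calls over all tested bins split by direction there was not counted, so the shift is not read as particular to dense bins.

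The share of bins called by state went up with density, while the size of the difference relative to the bin first fell and then rose. Of bins with 5 to 9 regions 20.4% differed by state, with 10 to 14 24.3% and with 15 to 19 28.4%. In dense bins it was 31.7% at 20 to 24, 35.6% at 25 to 29 and 43.2% at 30 or more. The median difference between states, taken without its sign, was 10%, 9.09% and 8.09% of a bin's regions in the first 3 classes. In the dense classes it was 7.5%, 9.72% and 12.1%. Within dense bins both thus rose, but up to 20 to 24 regions they moved apart. Over all bins the share called is therefore no measure of how large the differences were.

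The dense bin with the largest naive excess lay on chromosome 4 at 83200001 to 83400000 and held 39 regions. Naive CD4+ cells had 24 open before and 22 after treatment in animal 1 and 31 and 27 in animal 2. Naive CD8+ cells had 12 and 15 in animal 1 and 32 and 26 in animal 2. Memory CD4+ cells had 7 to 10 and memory CD8+ cells 4 to 6. Every naive library was thus above every memory library, 23.6 ± 7.11 against 7 ± 2.14 open regions (SD, n = 8 each; exact permutation test, adjusted p = 0.00252). The covered length moved alike, 29.4 ± 9.71 kb in naive and 7.79 ± 2.15 kb in memory libraries (SD, n = 8 each). The adjoining bin, at 83000001 to 83200000 with 25 regions, also had more in naive libraries, 11 to 23 against 7 to 11 (adjusted p = 0.00451, exact permutation test). In the first of the pair 12 regions passed the test of single regions, and all 12 were open in more naive libraries. The regions at 83216103 to 83218126 and at 83268181 to 83271534 were open in all naive libraries and in 0 of 8 memory libraries, and that at 83207080 to 83209702 in 8 naive and 1 memory library.

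A second naive bin, on chromosome 2 at 29200001 to 29400000, held 34 regions. Memory libraries were nearly alike there, with 8 to 11 open, whereas naive libraries ran from 14 to 33. Naive cells of animal 2 had 20 to 33 and those of animal 1 14 to 17. The regions at 29356430 to 29360170, 29361245 to 29364944 and 29290987 to 29293763 were each open in all naive and no memory libraries. The other 2 named naive bins were on chromosome 2 at 127400001 to 127600000, with 25.6 ± 4.5 open in naive and 14.5 ± 4.47 in memory libraries, and on chromosome 5 at 106400001 to 106600000, with 19 ± 4.69 and 8.5 ± 4.28 (SD, n = 8 each). In both, memory CD8+ libraries were the lowest, with 8 to 13 and 4 to 6 open regions, and memory CD4+ libraries had 16 to 21 and 10 to 14.

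**Figure D3:**
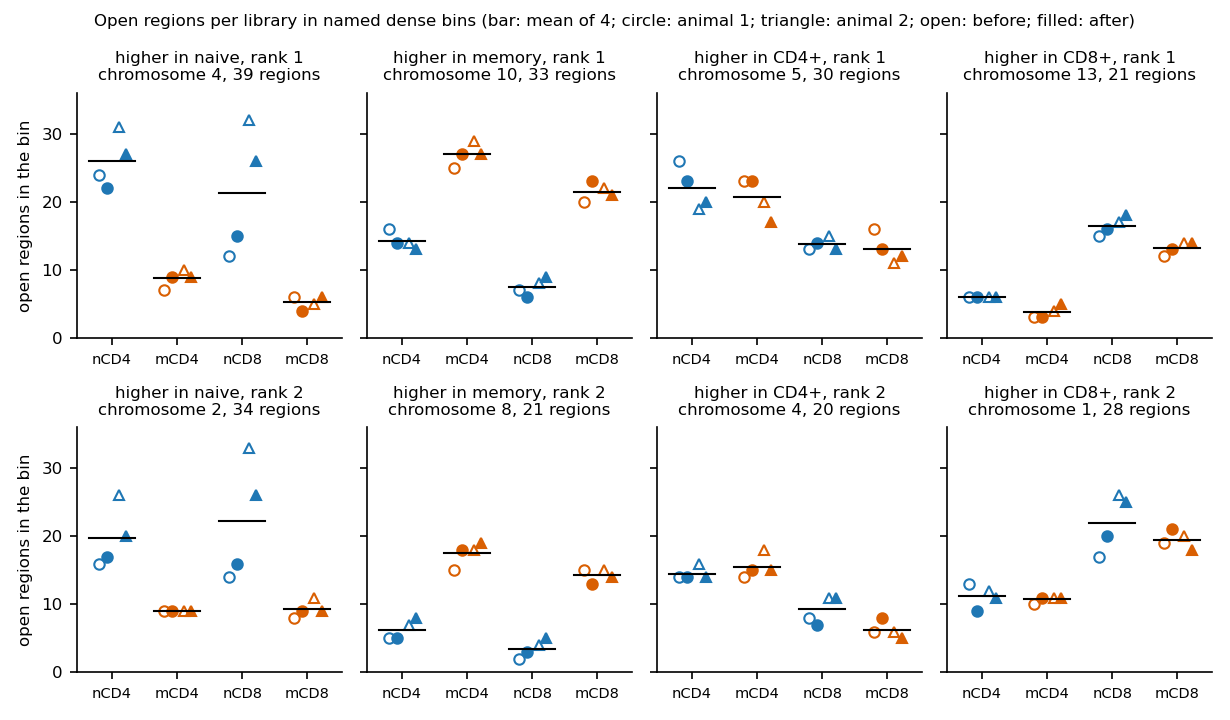
Number of open regions in each of the 16 libraries for the first and second named dense bin of each direction; n and m stand for naive (blue) and memory (orange) CD4+ or CD8+ cells, and a bar is the mean of 4 libraries. In the first naive bin the naive libraries have 12 to 32 open regions and the memory libraries 4 to 10.

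Among memory bins the largest excess was on chromosome 10 at 86600001 to 86800000, with 33 regions. Memory CD4+ libraries had 25 to 29 open and memory CD8+ libraries 20 to 23. Naive CD4+ libraries had 13 to 16 and naive CD8+ libraries 6 to 9. All memory libraries were above all naive ones, 24.2 ± 3.24 against 10.9 ± 3.80 open regions (SD, n = 8 each; exact permutation test, adjusted p = 0.00252), and covered 45.4 ± 6.99 against 16.4 ± 5.07 kb. Its regions at 86630787 to 86635008, 86721338 to 86722929 and 86662540 to 86664130 were open in all memory and no naive libraries. The next, on chromosome 8 at 11600001 to 11800000, held 21 regions, of which memory libraries had 13 to 19 and naive libraries 2 to 8 open. The regions at 11656348 to 11659677, 11733477 to 11734700 and 11666614 to 11667902 were likewise open in all memory and no naive libraries.

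In the other named memory bins the memory cells of the lineages had different levels, although none passed the lineage test (adjusted p = 0.156 to 0.389, exact permutation), in which the state difference counts as spread. On chromosome 2 at 14600001 to 14800000, memory CD4+ libraries had 22 to 24 open and memory CD8+ libraries 12 to 15, against 10 or 11 in naive CD4+ and 5 in each naive CD8+ library. CD4+ cells had 7.25 ± 2.25 more open regions (SD, n = 8 pairs), more in 8 of 8. On chromosome 6 at 140200001 to 140400000 the order was the other way, with 21 to 26 in memory CD8+, 12 to 16 in memory CD4+ and 7 to 10 in naive libraries. On chromosome 13 at 6000001 to 6200000, memory CD8+ libraries had 21 or 22 open, memory CD4+ libraries 12 to 14 and naive libraries 5 to 9. In all of them every memory library was above every naive one (exact permutation test, adjusted p = 0.00252).

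Across all called dense bins, the median state difference was 4.38 open regions in the 41 naive bins (1.62 to 16.6) and 5.44 in the 78 memory bins (1.88 to 13.4). Libraries of the states did not overlap in 4 of the 41 and in 36 of the 78, against 88 of 404 naive and 179 of 617 memory bins among all tested (21.8% and 29% of those called). Both lineages had the direction of the call in all of these bins. The difference was larger in CD8+ than in CD4+ cells in 31 of the 41 naive and 60 of the 78 memory bins, with medians of 5.5 against 3.75 and 7.12 against 4.88 open regions. That gap between lineages was not tested bin by bin and was not counted in other bins. It includes the naive CD8+ libraries of animal 1, which had the shortest lists, and their part in it was not tested.

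**Figure D4:**
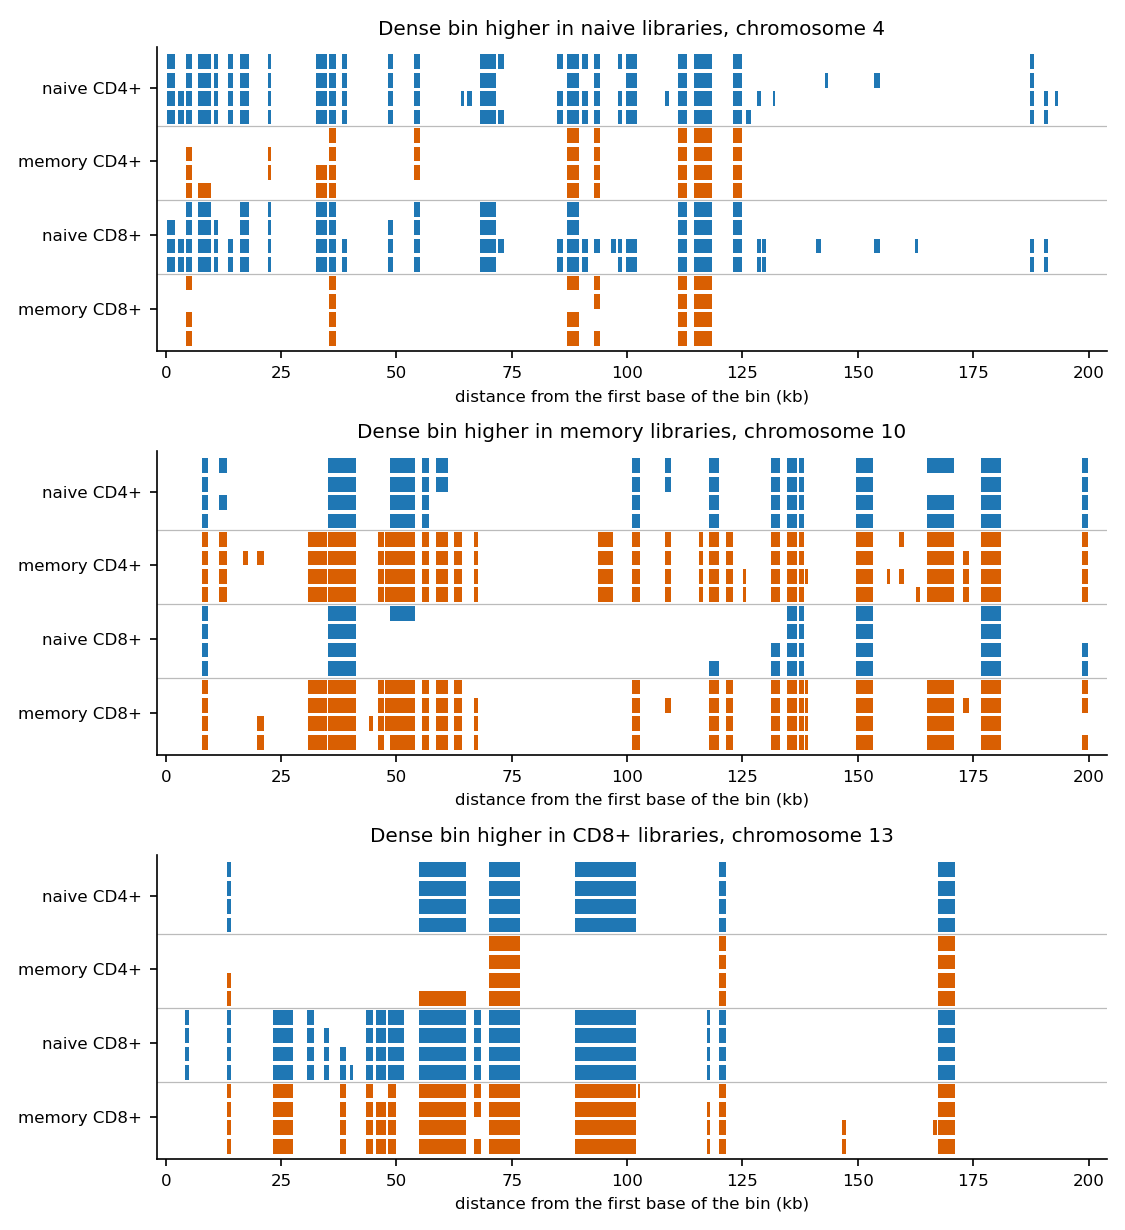
Merged regions open in each library along 3 dense bins, by distance from the first base of the bin. Each block holds the 4 libraries of a population, from top to bottom animal 1 before and after and animal 2 before and after treatment; a bar spans the whole merged region, not the library's own peak, blue in naive and orange in memory libraries. In the chromosome 4 bin memory rows hold 4 to 10 regions, and in the chromosome 13 bin CD4+ rows hold 3 to 6 and CD8+ rows 12 to 18.

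Single regions of dense bins differed between states about as often as regions at large. Of the 8442 regions, 1763 were open in 5 to 11 libraries and could be tested. Of the rest 964 were open in 1, 1384 in 2 to 4, 912 in 12 to 15 and 3419 in all libraries. Fisher's exact test, two-sided, with Benjamini-Hochberg adjustment over 10922 regions of all chromosomes, called 507 of the 1763 (28.8%), close to the 26.8% of all regions tested. In dense bins 189 were open in more naive libraries (10.7%, against 12% of all) and 318 in more memory libraries (18.0%, against 14.8%). Leaving aside the naive CD8+ libraries of animal 1, they were 247 and 297 of 1455 regions tested, together 37.4%, against 34.2% of all. Called regions that shared a bin often shared a direction. Of 68 dense bins with at least 3 called regions, 13 held naive regions alone, 41 memory regions alone and 14 both. Of 129 with at least 2, these were 33, 65 and 31. Other bins were not counted in this way, so a shared direction does not set dense bins apart.

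Regions open in every library add nothing to these counts, yet their strength moved with the bins they lay in. In the 78 memory bins, 640 such regions had a mean area score percentile of 66.3 to 70.2 in memory libraries and 58.0 to 61.8 in naive libraries, without overlap. The percentile was higher in naive libraries for 18.1% of them. In the 41 naive bins, 331 such regions had 62.1 to 68.4 in naive and 58.4 to 63.6 in memory libraries, with 72.8% higher in naive cells. Over the 23683 autosomal regions open in every library the percentile was higher in naive cells for 51.8%, with a median difference of 0.09 percentile points. In the 232 dense bins without a call, 47.5% of 2448 were higher in naive cells. These percentiles come from the same libraries as the calls and are given without a test.

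Most bins chosen in one animal kept their direction in the other, in dense bins and at large. In animal 1 all 4 naive libraries exceeded all 4 memory libraries in 17 dense bins (4.84%, against 4.54% of all tested bins). In animal 2 the mean was higher in naive cells in all 17, and 10 were again separated without overlap. Separated again were thus 58.8%, against 62.4% of all tested bins chosen alike, of which 99% kept their direction. The reverse, memory above naive, held for 60 dense bins in animal 1 (17.1%, against 9.96% of all tested bins). Of these, 59 had the same direction in animal 2 and 44 were again separated (98.3% and 73.3%, against 94.2% and 51.4% of all tested bins so chosen). Chosen in animal 2 were 35 naive bins (9.97%, against 8.69% of all tested bins) and 53 memory bins (15.1%, against 8.46%). Read in animal 1, 33 of 35 naive and 53 of 53 memory bins kept their direction, and 10 and 44 were separated. The shares separated were 28.6% and 83.0%, against 32.6% and 60.5% of all tested bins so chosen, of which 93.1% and 98.6% kept their direction. No dense bin was separated in opposite directions.

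**Figure D5:**
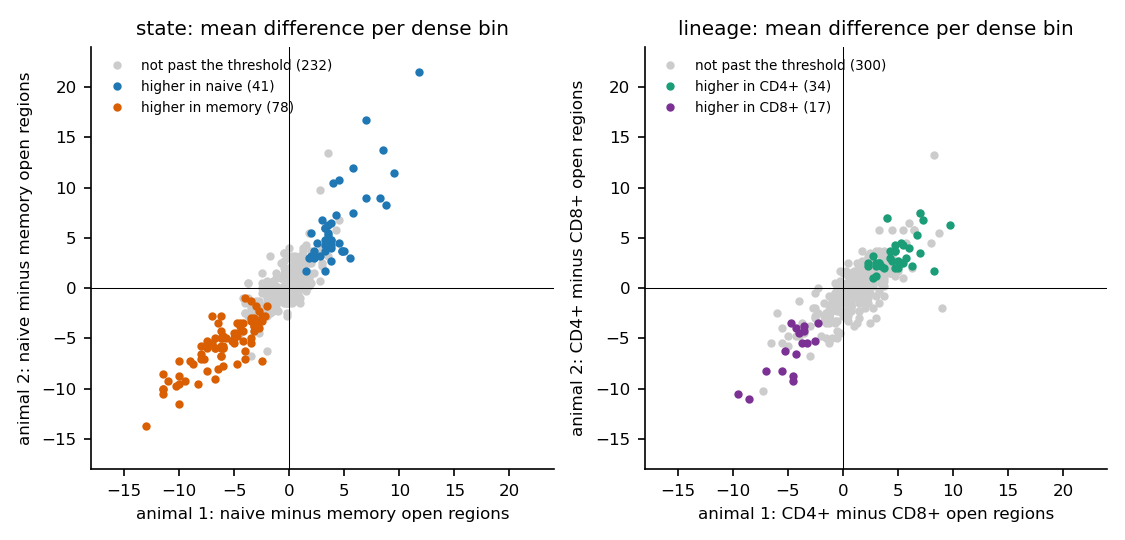
Mean difference in open regions per dense bin in animal 1 (horizontal) and animal 2 (vertical), left naive minus memory and right CD4+ minus CD8+. Each point is 1 of 351 dense bins, coloured where it passed the threshold over all 16 libraries; coloured points lie on the same side of 0 in both animals.

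The lineage comparison asked which bins set CD4+ apart from CD8+ cells. By the same exact permutation test 51 dense bins differed (14.5%), against 9.82% of all tested bins. CD4+ libraries had more open regions in 34 (9.69%, against 6.36% of all) and CD8+ libraries in 17 (4.84%, against 3.46%). Without the 2 naive CD8+ libraries of animal 1 the numbers were 26 and 25, a nearly even split (together 14.5%, against 10.1% of all tested). Directions over all tested bins were not counted there. Over all 16 libraries, 14.6% of bins with 15 to 19 regions also differed by lineage, so this share is not particular to dense bins. The share was 13.2% at 20 to 24 regions, 19.5% at 25 to 29 and 10.8% at 30 or more. No bin passed for both state and lineage, dense or not (0 of 4337). The permutation over all 16 libraries counts a difference by state as spread in the test for lineage, and the reverse, so this 0 does not show that bins respond to state or lineage alone. With labels exchanged within the 8 matched pairs no bin passed for lineage. The p of 0.00781 that 73 dense bins had there, the smallest that 8 pairs allow, did not pass adjustment over 4337 bins (exact permutation test).

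Differences in the 34 CD4+ bins were at most 8 open regions, although the chromosome 18 bin with 42 regions, which did not pass, had 10.75 more in CD4+ cells. On chromosome 5 at 38000001 to 38200000, with 30 regions, naive CD4+ cells had 26 and 23 open in animal 1 and 19 and 20 in animal 2, before and after treatment. Memory CD4+ cells had 23 and 23, and 20 and 17, and CD8+ libraries had 11 to 16. All CD4+ libraries were above all CD8+ ones, 21.4 ± 2.88 against 13.4 ± 1.60 (SD, n = 8 each; exact permutation test, adjusted p = 0.00630). Its leading region, at 38056165 to 38056914, was open in all CD4+ and no CD8+ libraries. Those at 38050166 to 38050959, open in 8 against 2, and at 38179285 to 38180218, open in 6 against 0, did not pass (Fisher's exact test, adjusted p = 0.0534).

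Adjoining dense bins on chromosome 4, at 46400001 to 46600000 and 46600001 to 46800000, were both higher in CD4+ cells. The first, of 20 regions, had 14 to 18 open in CD4+ and 5 to 11 in CD8+ libraries. The second, of 29, had 19 to 25 and 14 to 18. In the first the region at 46539667 to 46541861 was open in all CD4+ and no CD8+ libraries, that at 46569398 to 46570271 in 7 and 0, and that at 46572606 to 46573739 in 8 and 2, which did not pass. The other named CD4+ bins were on chromosome 17 at 80200001 to 80400000, with 21 ± 2 against 14 ± 3.21, and on chromosome 3 at 2400001 to 2600000, with 17.8 ± 2.96 against 12.2 ± 1.98 open regions (SD, n = 8 each).

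Among bins past the threshold the largest lineage difference was a CD8+ one, on chromosome 13 at 19000001 to 19200000, with 21 regions. CD4+ libraries had 3 to 6 open and CD8+ libraries 12 to 18, and the order was alike in both animals. The means were 4.88 ± 1.36 and 14.9 ± 2.03 (SD, n = 8 each; exact permutation test, adjusted p = 0.00630), and the covered lengths 7.21 ± 1.69 and 41.9 ± 4.09 kb. The regions at 19023326 to 19027550, 19048092 to 19049796 and 19043419 to 19044904 were open in all CD8+ and no CD4+ libraries, and the first stood at a mean area score percentile of 91.2. On chromosome 1 at 199600001 to 199800000, with 28 regions, CD8+ libraries had 17 to 26 open and CD4+ libraries 9 to 13. Its regions at 199679688 to 199683487, 199741070 to 199743887 and 199736877 to 199738376 were likewise open in all CD8+ and no CD4+ libraries.

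Remaining CD8+ bins differed in which state carried the excess. On chromosome 11 at 9400001 to 9600000, with 22 regions, both states of CD8+ cells were high, with 10 to 15 open against 4 to 7 in CD4+ libraries. On chromosome 12 at 100400001 to 100600000, with 28 regions, memory CD8+ cells had 5 and 15 open in animal 1 and 26 and 14 in animal 2, before and after treatment. Naive CD8+ cells had 4 to 6 and CD4+ libraries 2 to 4, so 3 libraries stood high, and 11 of the 28 regions were seen in 1 library alone. Without those 11 the bin would hold fewer than 20 regions and would not be dense. Its place among dense bins thus rests in part on the same high CD8+ values as its call, which is no separate support. On chromosome 16 at 62800001 to 63000000, memory CD8+ libraries had 10 to 15 of 20 regions open, naive CD8+ libraries 5 to 11 and CD4+ libraries 2 to 5. Over the 17 CD8+ bins the median difference was 5.75 open regions between memory cells and 4 between naive cells, and over the 34 CD4+ bins 4.5 and 3. These gaps between states were not tested.

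Of the 1763 single regions tested in dense bins, 6.58% differed by lineage, against 7.17% of all tested (Fisher's exact test, adjusted p under 0.05). There were 64 open in more CD4+ libraries (3.63%, against 4% of all) and 52 in more CD8+ libraries (2.95%, against 3.17%). With any 1 of the 16 libraries left out, either animal's, the count was 229 to 309, about 2 to 3 times as high. The share of all tested regions was higher alike, from 15.4% to 21%, against 14% to 19.3% in dense bins, and the cause was not tested. Of 15 dense bins with at least 2 such regions, 7 held CD4+ regions alone, 8 CD8+ regions alone and 0 both, and other bins were not counted in this way. Regions open in every library again moved with the bin. In the 34 CD4+ bins 369 of them had a mean percentile of 66.1 to 68.8 in CD4+ and 58.4 to 64.9 in CD8+ libraries. In the 17 CD8+ bins 136 had 58.8 to 66.9 in CD8+ and 55.6 to 59.8 in CD4+ libraries, which overlap slightly. Higher in CD4+ cells were 76.2% of the former and 27.9% of the latter, against 59.3% of all autosomal regions open in every library.

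Lineage bins were read across animals in the same way. Chosen in animal 1 were 48 CD4+ bins (13.7%, against 7.79% of all tested bins) and 12 CD8+ bins (3.42%, against 2.65%). In animal 2, 44 of the 48 and all 12 had the same direction, and 15 and 12 were again separated without overlap. Of all tested bins so chosen, 91.4% and 100% had the same direction, and 25.4% and 59.1% were separated. Chosen in animal 2 were 23 CD4+ bins (6.55%, against 4.01% of all tested bins) and 24 CD8+ bins (6.84%, against 4.29%). Of these, 23 of 23 and 22 of 24 had the same direction in animal 1, against 96.6% and 90.9% of all tested bins so chosen. For CD4+ bins of animal 1 the median difference went from 4.25 open regions to 2.5 in animal 2, while for its CD8+ bins it went from 4.5 to 7.38. Chosen in animal 2 the order turned, from 3.75 to 4.25 for CD4+ bins and from 4.75 to 3.88 for CD8+ bins. Over all tested bins chosen in animal 1 the medians went from 2.5 to 1.5 and from 3.25 to 3. Of those chosen in animal 2 they were 2.25 and 2.25, and 2.75 and 1.75.

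The treatment comparison asked whether dense bins opened or closed over cyclodextrin dosing. None of the 351 passed in either direction, and the same held for all 4337 tested bins (0%). At an unadjusted p under 0.05 (exact permutation test) there were 2 dense bins and 15 of the other 3986. This test counts differences between populations as spread, which makes it weak for time. A second one, added after the values were seen, exchanged labels within the 8 matched pairs of the same animal and population. None passed there, but the smallest p that 8 pairs allow, 0.00781, cannot pass adjustment over 4337 bins unless a large share of the bins reach it. At an unadjusted p under 0.05 it gave 8 dense bins (2.28%) and 38 of the others (0.953%). A single dense bin reached the smallest p, on chromosome 1 at 58200001 to 58400000, with 20 regions and fewer open after treatment in all 8 pairs (9.88 ± 4.02 against 11.5 ± 3.89, SD, n = 8 each; mean difference -1.62 ± 0.74, SD of pairs). None of the 1763 tested regions in dense bins passed Fisher's exact test (0% of all 10922 as well), and 4 had an unadjusted p under 0.05. The median difference between times, taken without its sign, was 1.88% of a bin's regions at 20 to 24 regions, against 7.5% between states and 6.88% between lineages.

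The named bins with the largest differences, none past the threshold, showed small shifts or single libraries. On chromosome 3 at 3200001 to 3400000, with 21 regions, naive CD4+ cells had 14 open before and 17 after in both animals. Naive CD8+ cells went from 12 to 15 in animal 1 and from 16 to 17 in animal 2, memory CD4+ cells from 13 to 13 and from 13 to 15, and memory CD8+ cells from 11 to 13 and from 12 to 14. The means were 13.1 ± 1.55 before and 15.1 ± 1.73 after (SD, n = 8 each; exact permutation test, p = 0.0446, adjusted p = 1). Its regions at 3328478 to 3330327 (7 of 8 libraries after, 4 of 8 before), 3220563 to 3221051 (4 and 1) and 3396907 to 3398026 (6 and 3) were uneven without passing. On chromosome 20 at 75600001 to 75800000, with 26 regions, memory CD4+ cells of animal 1 went from 14 to 25 while every other library had 9 to 14. Its most uneven regions were at 75732179 to 75734121 (2 and 0), 75647075 to 75650150 (7 and 5) and 75714359 to 75715241 (3 and 1), and were not tested.

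Toward lower counts the first bin was on chromosome 6 at 140600001 to 140800000, with 32 regions, 14.9 ± 6.27 open before and 11.9 ± 4.85 after (SD, n = 8 each), lower after in 6 of 8 pairs. It also passed for state, with 18.2 ± 2.92 in memory and 8.5 ± 2.27 in naive libraries. Its region at 140767417 to 140768173 was open in 4 libraries before and 1 after, that at 140793812 to 140796312 in 6 and 4, and that at 140723527 to 140724353 in 2 and 0. The next was the chromosome 18 bin with 42 regions described above, where naive CD4+ cells of animal 2 had 41 open before and 26 after. Its uneven regions, at 74173875 to 74174850 (4 before, 1 after), 74179284 to 74184199 (6 and 4) and 74114769 to 74122218 (5 and 3), did not pass.

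Within single populations the 2 animals often differed in opposite directions between times. In memory CD8+ cells 20 dense bins had more open regions after treatment in both animals, 67 had fewer in both and 34.8% of the 351 went opposite ways. In naive CD4+ cells these values were 26, 51 and 28.2%, in memory CD4+ cells 56, 33 and 27.1%, and in naive CD8+ cells 41, 22 and 34.2%. In the remaining bins at least 1 animal did not change. In the other tested bins, which hold fewer regions, each class was smaller. For memory CD8+ cells 4.32% had more in both, 8.66% fewer in both and 16% went opposite ways, against 5.70%, 19.1% and 34.8% of dense bins. For naive CD4+, memory CD4+ and naive CD8+ cells 11.0%, 12.8% and 11.5% of the other bins went opposite ways. The share of dense regions open after treatment minus before was 1.90 points on average in animal 1 and -2.43 points in animal 2. List length moved with this share in some populations and against it in others, and its part was not tested. In animal 1 the lists of memory CD4+ and naive CD8+ cells held more peaks after than before (42034 against 39667, and 37966 against 36307), as did the open share. That of memory CD8+ cells held fewer (39426 against 40316) while its share was higher (63.2% against 61.3%), and that of naive CD4+ cells more (40842 against 40251) while its share was lower (62.6% against 63.1%). In animal 2 the lists of memory CD4+, naive CD8+ and memory CD8+ cells held fewer peaks after and had lower shares. That of naive CD4+ cells held slightly more (40485 against 40419) with a lower share (64.0% against 65.3%).

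A comparison of the animals, added after the values were seen, concerns these 2 animals alone. Of the dense bins 4 differed (1.14%, against 0.553% of all tested bins), each with more open regions in animal 2 (0.277% of all) and none with more in animal 1 (0.277% of all). Adjoining bins of the run on chromosome 7 made up 3 of them. At 168800001 to 169000000 animal 2 had 19 to 24 of 28 regions open and animal 1 7 to 11. At 169000001 to 169200000 it had 17 to 20 of 23 against 4 to 9, and at 169200001 to 169400000 13 to 17 of 27 against 7 to 12. The other was on chromosome 9 at 12200001 to 12400000, with 18 to 23 of 31 against 12 to 17. Each separated the 8 libraries of one animal from the 8 of the other (exact permutation test, adjusted p = 0.0281), in all populations and at both times. With counts scaled to each library 13 dense bins differed (3.70%, against 2.51% of all tested), 4 of them with more in animal 1. The permutation over all libraries counts differences by state and lineage as spread, which makes it weak for animals. At an unadjusted p under 0.05 (exact permutation test) there were 54 dense bins (15.4%), against 8.93% of the other tested bins. Of single regions in dense bins 70 of 1763 differed between animals (3.97%, against 3.51% of all), 20 open in more libraries of animal 1 (1.13%, against 1.36%) and 50 in more of animal 2 (2.84%, against 2.14%; Fisher's exact test). The 3 bins on chromosome 7 alone held 23 of the 50 and 3 of the 20, so the higher share for animal 2 is not read as a trait of dense regions.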

How the data were processed

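Peak lists of 16 ATAC-seq libraries, each made from sorted T cells, were used as deposited. The submitters' processing notes name cutadapt 1.18, Bowtie2 2.3.4.1, Genrich 0.6 and the build rheMac10. The sources used here do not give settings, duplicate removal or any shift for transposase binding. Each library has its own list, so replicates were not pooled by the authors. A list gives an area score, deposited by the authors, of at least 200.0, and a −log10 p at the summit, deposited by the authors, from 2.42 to 16.3. Both belong to their own list and were used here to rank or filter peaks within it. The least different lists differed in 4069 regions, so no library was counted as a copy.

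Bins with at least 5 regions were tested by exact permutation and regions open in 5 to 11 libraries by Fisher's exact test, with Benjamini-Hochberg adjustment. Single shares were tested by exact sign-flip over 8 pairs within an animal. Pairing came from the titles. Deviations of the same animal from the group means correlated in all 28 pairs of groups (0.249 to 0.654 over 4337 bins). Members, lists and named items were chosen with earlier results of these data known. Named bins were the 10 with the most regions and, per comparison and direction, up to 5 past the threshold by mean difference, or 2 where none passed, with 3 regions in the first 2. Depth is unknown from peak lists, so no counting interval is given. The 4 bins that set the animals apart were named after their values were seen. Alternatives were lists of equal length, a summit −log10 p of at least 3.42, 50% coverage of a region, regions of at least 2 libraries, shifted bins, scaled counts, no filters, animals as strata, matched pairs and each library left out. Tests were checked on simulated data. The tools were scipy 1.17.1, pandas 2.3.3, matplotlib 3.10.9 and numpy 2.4.6 under Python 3.11.15. Planned gene names and marker lists were not run, since no annotation of the build was used here.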

Additional observations from a re-analysis of the deposited data

Results flagged for a closer look

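In each group of 8 libraries the highest or lowest value was compared with the rest by Dixon's criterion, which marks about 1 in 20 groups by chance, over 80 groups, those of the named bins and of the shares open. Naive CD8+ cells of animal 1 after treatment had the lowest share of dense regions open among libraries after treatment, 57.3%. In the chromosome 18 bin with 42 regions, naive CD4+ cells of animal 2 before treatment had 41 open regions, apart from the other naive libraries. In the chromosome 7 bin with 39 regions, naive CD8+ cells of animal 1 before treatment had 23, the fewest among naive libraries. In the chromosome 2 naive bin with 34 regions, memory CD8+ cells of animal 2 before treatment had 11, the most among memory libraries, where the range was 8 to 11. In the chromosome 20 bin with 26 regions, memory CD4+ cells of animal 1 after treatment had 25, apart from the other libraries after treatment.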

How the results depend on the processing

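Dense bins made up 4.61% of autosomal bins with a region, and 3.01% with lists cut to equal length, 1.58% with a stricter peak threshold, 2.93% without regions of 1 library, 11.7% with at least 15 regions a bin and 1.63% with at least 25. With regions at most 500 bp apart joined, an alternative chosen after seeing the data, the share was 2.26%. Dense bins were chosen anew under each change to the lists, so fewer could be called. Bins differing by state numbered 78 with equal lists, 34 with the stricter threshold and 78 without regions of 1 library, which were 35.0%, 29.3% and 35.8% of dense bins (33.9% in the report) against 25.3%, 19.3% and 24.3% of all tested. With the stricter threshold 13 differed by lineage (11.2% against 8.17% of all) and 1 by animal (0.862% against 0.553%). With scaled counts 13 differed by animal (3.70% against 2.51% of all). Counting a region as open where 50% was covered gave 49 CD4+ and 11 CD8+ bins, together 17.1% of dense bins against 11.2% of all tested. Regions differing by state numbered 309 with equal lists, 152 with the stricter threshold, 330 without regions of 1 library and 298 with no filter on libraries, and by lineage 66, 34, 68 and 52. These were 28.7%, 29.3%, 27.5% and 3.53% of the dense regions tested by state and 6.13%, 6.55%, 5.68% and 0.616% by lineage, against 27.6%, 24.6%, 26.8% and 3%, and 7.72%, 7.10%, 7.17% and 0.684%, of all.

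The naive minus memory difference in share open passed with equal lists (-2.41 points), 50% coverage (-4.92) and without regions of 1 library (-2.75), and did not with shifted bins (-1.33), the stricter threshold (-4.29), unpaired libraries (-2.84) or without both naive CD8+ libraries of animal 1 (-1.56). Relative to other bins it passed under the first 3 of these (-1.90, -2.84 and -1.56) and reversed to 0.27 with shifted bins. Without regions of 1 library the lineage difference passed (3.79 points), also relative to other bins (1.5, but -0.15 with the stricter threshold), and the time difference turned to 0.26 without passing. The cause was not tested.

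Leaving out each library gave 110 to 127 bins by state, 46 to 65 by lineage, 0 by time and 3 to 6 by animal, and 530 to 591 regions by state and 229 to 309 by lineage. The time difference in share ranged from -0.80 to 0.42 points and the naive minus memory difference in the lineage effect from -0.41 to 3.09. With animals as the replicate block, 58 dense bins differed by lineage (16.5%, against 10.4% of all tested) and 0 by time. By state 546 regions differed (31.0%, against 29.2% of all). That block moved no count by over 1.5 times. With the replicate block and population together, which exchanges labels within matched pairs and was added after seeing the data, 31.1% of dense bins differed by state (42 naive and 67 memory), against 16.1% of all, and 0 by lineage and time. For lineage 73 dense bins reached the smallest p that 8 pairs allow, too few bins over all tested for that p to pass adjustment.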
